A study of Rattus norvegicus with 8 samples.

Results

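The transcription factor Gata6 and 9 genes of the retinoid pathway were followed in sorted peritoneal macrophages of carbon nanotube-treated rats. The set was given by symbol, and no measured value entered the rule, although earlier results of these data were known when it was drawn up. All 10 of its genes were found once each among the 23487 genes of the count table. It holds Gata6, the retinoic acid receptors Rara, Rarb and Rarg, the retinoid X receptors Rxra and Rxrb, and the enzymes Dhrs3, Cyp26b1, Retsat and Rdh10. Female Wistar rats, 8 weeks old, received an intraperitoneal injection of needle-like, mesotheliomagenic carbon nanotubes (CNT-7, MWCNT-XNRI-7) or of the same mass of tangled, non-mesotheliomagenic carbon nanotubes (CNT-T). Macrophages were sorted by flow cytometry 15 days later from 4 rats per particle, numbered 3, 5, 10 and 11 after CNT-7 and 1, 2, 12 and 13 after CNT-T. Every rat carried a particle and untreated rats were not analysed here, so that each difference is one between both particles.

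In the mouse, Gata6 gives the resident macrophages of the peritoneum their identity, and its expression there depends on retinoic acid, which stromal and mesothelial cells of the cavity and omentum produce from vitamin A. Retinol is oxidised reversibly to retinal, and retinal is then oxidised irreversibly to retinoic acid. Retinoic acid binds RAR proteins that sit on DNA as heterodimers with RXR proteins, and the pair turns from repressing to activating the target gene. Several genes that remove retinoids or sense them, among them Rarb, Dhrs3 and the Cyp26 genes, are themselves induced by retinoic acid in many cell types.

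Among the 10 genes, the upstream regions of both RAR genes that differed between the particles are shown here, because the region of Rarb holds the kind of element through which RAR and RXR bind DNA. Regions run from 250 bases before to 50 bases after a transcript start of RefSeq (rat assembly GRCr8, not the assembly used for the counts), and all of the 10 genes but Rdh10 had at least 1. Capitals mark matches, on either strand, to the hexamers AGGTCA or AGTTCA or GGGTCA or GGTTCA, and the whole of any direct repeat of them spaced by 5 bases. The Rarb region lies on the + strand at chr15:11336142-11336441 and the Rara region on the + strand at chr10:84411217-84411516.
Rarb: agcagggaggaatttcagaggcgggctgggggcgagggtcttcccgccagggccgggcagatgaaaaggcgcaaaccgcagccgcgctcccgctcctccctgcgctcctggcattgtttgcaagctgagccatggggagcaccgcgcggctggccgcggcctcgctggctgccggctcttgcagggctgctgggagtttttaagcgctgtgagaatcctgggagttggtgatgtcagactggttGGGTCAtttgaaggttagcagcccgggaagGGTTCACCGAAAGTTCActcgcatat
Rara: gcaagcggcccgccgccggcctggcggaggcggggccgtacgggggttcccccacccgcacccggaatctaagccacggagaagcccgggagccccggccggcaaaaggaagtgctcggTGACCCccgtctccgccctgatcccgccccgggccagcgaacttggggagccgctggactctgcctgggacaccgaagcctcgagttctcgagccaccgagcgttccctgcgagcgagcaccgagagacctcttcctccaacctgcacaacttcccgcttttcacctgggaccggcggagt

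The repeat in the Rarb region, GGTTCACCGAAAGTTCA, begins 25 bases into the transcript. A direct repeat of the hexamers with this spacing was present in 128 of all 33469 RefSeq regions (0.382%), and the combination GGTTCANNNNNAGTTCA in 3 of them (0.00896%). The hexamer alone was common and occurred in 44.4% of all regions. It was found in 4 of the 9 genes with a region, namely Rara, Rarb, Rarg and Retsat, and the repeat was found in Rarb alone. The GATA letters AGATAA or TGATAA or AGATAG or TGATAG, searched on both strands, were present in 30.3% of all regions and among the 9 genes in Rarg. Such matches describe letters and do not show binding.

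Of the 10 genes, Gata6, Rara and Rarb were significantly higher and Dhrs3 was significantly lower in macrophages after CNT-7 than after CNT-T. Counts were normalized by the TMM method and compared by the quasi-likelihood test of edgeR with Benjamini-Hochberg adjustment over 12124 genes, and an adjusted p-value under 0.10 was taken as significant. Levels are given as counts scaled to a library of 1000000 (CPM), and values with ± are means with the SD over the 4 rats of a particle. All 10 genes had enough counts to be tested. The 4 significant genes stand against a background of 27.9% of all genes tested, 13.9% higher and 14.0% lower in CNT-7. The median log2 fold change was 0.11 over the 10 genes and 0.0083 over all genes. The share is therefore close to that of the whole transcriptome for a set of this size, and the genes are described below by their roles. Both groups did not overlap in 5 of the 10 genes, against 24.9% of all genes tested.

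**Figure D1:**
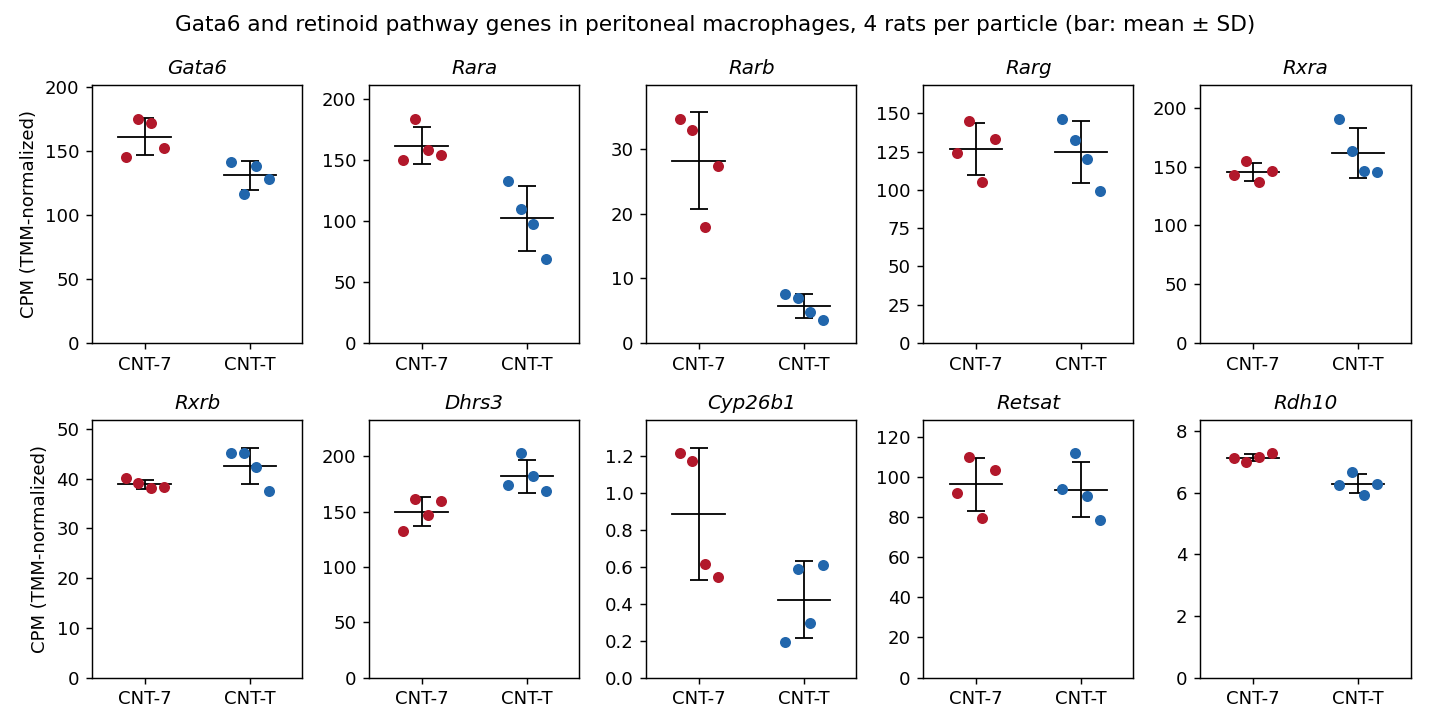
Level of each of the 10 genes in every rat, in CPM (linear axis from 0, a separate scale for each gene). Points are the 4 rats per particle, horizontal bars the mean and error bars the SD. Rarb shows the widest gap, with 17.98 to 34.8 CPM in CNT-7 rats against 3.61 to 7.59 CPM in CNT-T rats.

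Libraries held between 27195157 and 33732981 counts per rat, so that a level of 3 counts corresponded to at most 0.11 CPM. The sorted cells carried macrophage markers, such as the receptor of M-CSF, Csf1r, with 1130 to 1296 CPM in CNT-7 rats against 1358 to 1690 CPM in CNT-T rats. These markers were not at the same level in both groups, 6 of 10 being significantly lower and 1 higher in CNT-7. Their summed level was 18604 to 24810 CPM in CNT-7 rats against 26883 to 39111 CPM in CNT-T rats. Most of this sum was Lyz2, with 17590 ± 3603 CPM in CNT-7 rats against 24353 ± 4356 CPM in CNT-T rats. Lyz2 itself narrowly missed the threshold (edgeR adjusted p = 0.1002). All 9 mesothelial markers were under 1 CPM in every rat and summed to at most 1.24 CPM, and Wt1 and Upk3b had 0 counts in all 8 rats. All 7 fibroblast markers were also under 1 CPM in every rat, with sums of at most 1.71 CPM. Neutrophil markers summed to 43.5 to 84.8 CPM in CNT-7 rats against 26.8 to 70.2 CPM in CNT-T rats. Of 6 tested genes 1 was significantly lower in CNT-7 and 0 were higher, and Mpo was at 0 counts in all 8 rats. The neutrophil marker Retnlg varied widely, with 0.33 to 51.3 CPM in CNT-7 rats against 0.072 to 1.83 CPM in CNT-T rats (edgeR adjusted p = 0.13). Eosinophil markers summed to at most 9.33 CPM, reached in CNT-7 rat 3, where Ccr3 had 266 counts against 3 to 19 in the other rats, and Epx was at 0 counts in every rat. B cell and mast cell markers summed to at most 2.78 and 2.11 CPM. The part of such cells in the levels below was not tested. In bulk RNA a lower level cannot be told apart from fewer cells that express the gene.

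Gata6 (ENSRNOG00000023433) had 145, 176, 172 and 153 CPM in CNT-7 rats 3, 5, 10 and 11. In CNT-T rats 1, 2, 12 and 13 it had 141, 117, 138 and 128 CPM. The groups did not overlap, but CNT-7 rat 3 and CNT-T rat 1 lay only slightly apart. The level was 1.23-fold higher after CNT-7 (95% interval 1.07 to 1.42, edgeR adjusted p = 0.042). The adjusted p-value of edgeR was 0.12 without CNT-7 rat 5 and 0.11 without CNT-T rat 2. It stayed under the threshold when any of the other 6 rats was omitted, but only just without CNT-7 rat 10 (edgeR adjusted p = 0.09995). This difference lies within the range that holds the middle 80% of all genes (log2 fold change -0.51 to 0.53).

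The other GATA genes were low or not detected at this depth. Gata4 and Gata5, which share roles with Gata6 in heart and gut, had 0 counts in every rat, which allows at most 0.11 CPM. Gata3 had 0.55 ± 0.13 CPM in CNT-7 rats against 0.31 ± 0.14 CPM in CNT-T rats and did not pass the test (edgeR adjusted p = 0.19). Zfpm1, which encodes the GATA cofactor FOG1, had 37.1 ± 3.23 and 44.6 ± 5.79 CPM and also missed the threshold (edgeR adjusted p = 0.11). Of 8 listed GATA and FOG genes 3 were tested, and Gata6 was the only significant one. T cells express Gata3, and the 5 T cell markers in the table summed to 4.16 to 7.54 CPM in CNT-7 rats against 1.45 to 3.08 CPM in CNT-T rats; their part in the level of Gata3 was not tested.

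The genes that depend on Gata6 in mouse peritoneal macrophages were found on both sides of 0. Of 12 listed genes 10 were tested, 1 was significantly higher, 2 were significantly lower and 7 did not pass, with a median log2 fold change of -0.056. Selp, which encodes P-selectin, had 1896 to 2666 CPM in CNT-7 rats against 1796 to 2070 CPM in CNT-T rats (edgeR adjusted p = 0.29). Aspa, the aspartoacylase gene needed for survival of these cells in mouse, had 12.3 to 18.2 CPM in CNT-7 rats against 13.7 to 25.4 CPM in CNT-T rats (edgeR adjusted p = 0.35). The significant genes were Serpinb2, the gene of a plasminogen activator inhibitor, which was higher after CNT-7, and Tgfb2 and the coagulation factor gene F5, which were lower. Serpinb2 changed most, from 12.9 ± 5.95 CPM in CNT-T rats up to 411 ± 101 CPM in CNT-7 rats (log2 fold change 4.99, edgeR adjusted p = 8.1e-05). Tgfb2 had 398 to 611 CPM in CNT-7 rats against 1004 to 1219 CPM in CNT-T rats, without overlap between the groups.

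Over the 8 rats, the genes whose log2 CPM was most like that of Gata6 were Coro6 (Pearson's r = 0.98), Nwd1 (0.97), Bhlhe40 (0.97), Aurkaip1 (0.96) and Zfp866 (0.96). These values were taken across 12124 genes and 8 libraries that fall into both treatment groups, and are given as a description. Bhlhe40, a basic helix-loop-helix transcription factor, was one of the 3 that passed the test of edgeR (adjusted p = 0.027), with 463 ± 77.5 CPM in CNT-7 rats against 326 ± 44.0 CPM in CNT-T rats.

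Rarb (ENSRNOG00000024061), the RAR gene classically induced by retinoic acid, changed most among the 10 genes. It had 34.8, 33.0, 17.98 and 27.4 CPM in CNT-7 rats 3, 5, 10 and 11, and 7.59, 6.94, 4.84 and 3.61 CPM in CNT-T rats 1, 2, 12 and 13. Even the lowest CNT-7 rat, rat 10, was more than double the highest CNT-T rat. These values rest on 498 to 1059 counts after CNT-7 and 101 to 235 counts after CNT-T. CNT-7 rats thus had 4.90-fold more Rarb RNA (95% interval 3.24 to 7.43, edgeR adjusted p = 0.00068). Omitting any single rat gave log2 fold changes between 2.13 and 2.46, all 8 of them significant. Rarb is also the gene among the 9 with an upstream region whose region holds the spaced direct repeat printed above. Among the significant genes of the other pathway lists, Fabp5 and Tgm2 had no region, and the regions of all others lacked the repeat. Whether the repeat bears on the level of Rarb was not tested.

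Rara (ENSRNOG00000009972), which encodes the RAR alpha protein, was the other receptor gene that was significantly higher. Its levels were 150.0, 184, 158 and 154 CPM in CNT-7 rats 3, 5, 10 and 11. In CNT-T rats 1, 2, 12 and 13 they were 133, 110, 97.7 and 68.9 CPM. The groups did not overlap, but the CNT-T rats were spread over a wider range than the CNT-7 rats, with a coefficient of variation of 25.9% against 9.45%. The difference was 1.58-fold (95% interval 1.21 to 2.06, edgeR adjusted p = 0.023). It was significant in all 8 fits that left out a rat, with log2 fold changes between 0.51 and 0.81.

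Rarg (ENSRNOG00000012499), the gene of the third RAR protein, did not separate the groups. It had 124, 145, 105 and 133 CPM in CNT-7 rats 3, 5, 10 and 11, and 147, 133, 121 and 99.4 CPM in CNT-T rats 1, 2, 12 and 13. The rats of each particle covered nearly the same range. The log2 fold change was 0.024 (95% interval -0.27 to 0.32, edgeR adjusted p = 0.92), an interval that reaches from a 1.21-fold lower to a 1.25-fold higher level after CNT-7.

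The proportions of the RAR genes also differed between the particles. The log2 ratio of Rara to Rarg counts, taken within each rat and so independent of normalization, had a mean of 0.35 ± 0.17 in CNT-7 rats and of -0.31 ± 0.16 in CNT-T rats. It was above 0 in all 4 CNT-7 rats and below 0 in all 4 CNT-T rats, and the difference was 0.67 (two-sided exact permutation p = 0.0286, the lowest value that 4 rats against 4 allow). Adjusted over the 3 ratios tested, the exact permutation p was 0.043. Rarb made up 8.86 ± 1.99% of the summed counts of the 3 RAR genes after CNT-7 and 2.43 ± 0.34% after CNT-T. Counts were not corrected for transcript length, so that ratios and shares compare rats and not the levels of different genes.

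The RXR genes, whose proteins are the partners of RAR and of several other nuclear receptors, did not pass the test. Rxra (ENSRNOG00000009446) had 143, 155, 137 and 147 CPM in CNT-7 rats 3, 5, 10 and 11 and 191, 164, 146 and 145 CPM in CNT-T rats 1, 2, 12 and 13. Only CNT-T rats 1 and 2 were above the range of the CNT-7 rats. The log2 fold change was -0.15 (95% interval -0.37 to 0.066, edgeR adjusted p = 0.31).

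Rxrb (ENSRNOG00000000464) had 40.1, 39.1, 38.0 and 38.2 CPM in CNT-7 rats 3, 5, 10 and 11 and 45.1, 45.1, 42.3 and 37.5 CPM in CNT-T rats 1, 2, 12 and 13. Here CNT-T rat 13 was below all CNT-7 rats and the other 3 CNT-T rats were above them. The log2 fold change was -0.13 (95% interval -0.30 to 0.039, edgeR adjusted p = 0.26), and without CNT-T rat 13 it was -0.19 and significant (edgeR adjusted p = 0.081). The log2 ratio of Rxra to Rxrb was 1.90 ± 0.073 after CNT-7 and 1.92 ± 0.13 after CNT-T (two-sided exact permutation p = 0.83). Rxrg, the remaining RXR gene, had 0 counts in every rat.

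Among the CNT-T rats, all 5 receptor genes (Rara, Rarb, Rarg, Rxra and Rxrb) had the same ranking, with rat 1 highest, then rats 2, 12 and 13. Of the 12124 genes tested, 1014 (8.36%) had this ranking, out of 24 that are possible. Csf1r, with 1690, 1592, 1480 and 1358 CPM in CNT-T rats 1, 2, 12 and 13, shared it. So did the macrophage marker Cd68, with 863, 710, 669 and 591 CPM. The ranking itself was taken from Rara in these same data, and Csf1r and Cd68 were chosen after their values were seen. The macrophage markers C1qa, C1qb and C1qc shared the ranking as well, whereas Adgre1 and Cd14 did not. In the same rats Adgre1 had 597, 652, 604 and 516 CPM, and Cd14 had 201, 228, 181 and 190 CPM. Gata6, Dhrs3, Cyp26b1, Retsat and Rdh10 did not share the ranking either. In the CNT-7 rats the receptor genes fell into 3 different rankings. Rankings of the macrophage markers Mertk, Fcgr1a and Lyz2 are not given here.

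**Figure D2:**
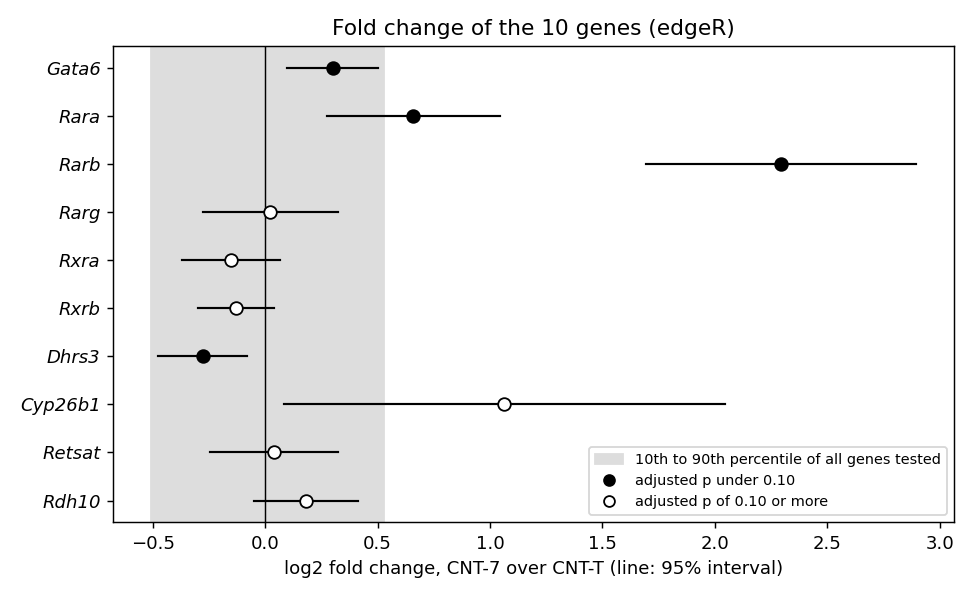
Fold change (log2, CNT-7 over CNT-T) of the 10 genes (edgeR, 4 rats per particle), with 95% intervals as lines, filled points for adjusted p-values under 0.10 and a grey band for the 10th to 90th percentile of all genes tested. Rarb (2.29), Cyp26b1 (1.06, not significant) and Rara (0.66) lie above the band, Gata6 (0.30) and Dhrs3 (-0.28) inside it, and Cyp26b1 has the widest interval.

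Dhrs3 (ENSRNOG00000015736), whose enzyme reduces retinal back to retinol, was the only one of the 10 genes that was significantly lower. It had 132, 161, 147 and 160 CPM in CNT-7 rats 3, 5, 10 and 11, and 174, 203, 183 and 168 CPM in CNT-T rats 1, 2, 12 and 13. All CNT-7 rats were below all CNT-T rats, by a narrow margin between CNT-7 rat 5 and CNT-T rat 13. CNT-7 rats had a 1.21-fold lower level (log2 fold change -0.28 with a standard error of 0.089, edgeR adjusted p = 0.053). The call was lost when CNT-7 rat 3 or 10 or CNT-T rat 2 or 12 was left out, with edgeR adjusted p-values of 0.13, 0.11, 0.13 and 0.11 and log2 fold changes between -0.28 and -0.22. Dhrs3 and Rarb, both named as retinoic acid targets in the background above, thus lay in opposite directions.

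Rdh10 (ENSRNOG00000006681), which encodes the retinol dehydrogenase that works in the reverse direction to Dhrs3, was present at a low level. It had 7.13, 6.999, 7.15 and 7.27 CPM in CNT-7 rats 3, 5, 10 and 11 and 6.26, 6.68, 5.93 and 6.26 CPM in CNT-T rats 1, 2, 12 and 13, from 175 to 226 counts per rat. The groups did not overlap, but the difference did not pass the test (log2 fold change 0.18, 95% interval -0.047 to 0.41, edgeR adjusted p = 0.25).

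The log2 ratio of Rdh10 to Dhrs3 within each rat was -4.38 ± 0.13 after CNT-7 and -4.84 ± 0.096 after CNT-T. The groups did not overlap, and the ratio was 1.38-fold higher after CNT-7 (two-sided exact permutation p = 0.0286, adjusted over the 3 ratios 0.043). Omitting any single rat, the difference of the log2 ratios stayed between 0.40 and 0.51. Dhrs3 alone passed the test of edgeR, and Rdh10 lay on the other side of 0.

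**Figure D3:**
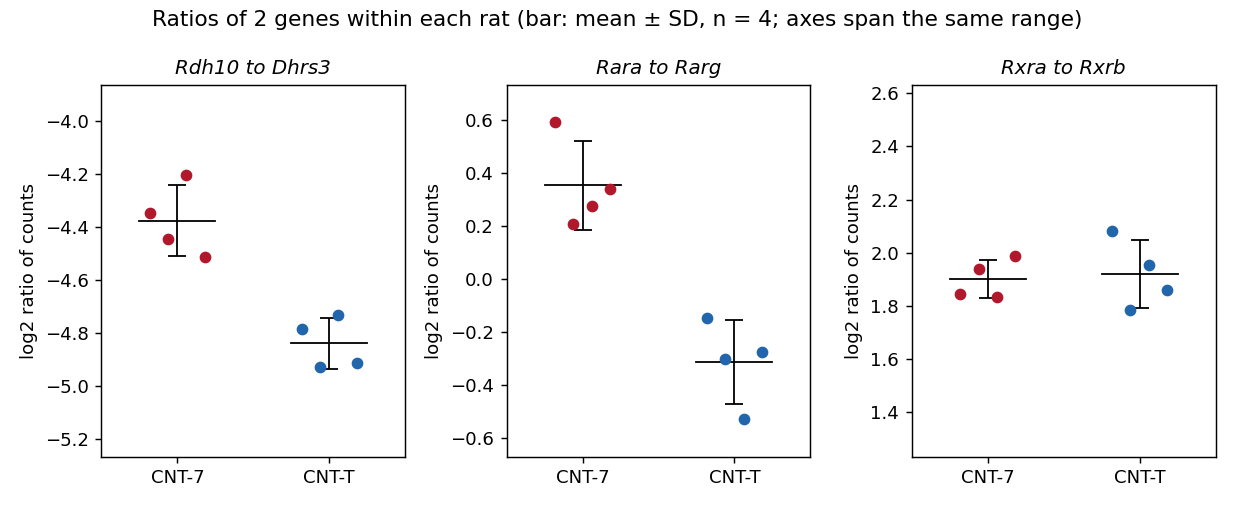
Log2 ratio of the counts of 2 genes in each rat, for Rdh10 to Dhrs3, Rara to Rarg and Rxra to Rxrb, with the mean and SD of 4 rats per particle (log2 axes of equal span that do not start at 0). The groups are apart for Rdh10 to Dhrs3 and for Rara to Rarg, and they overlap for Rxra to Rxrb, with means of 1.90 and 1.92.

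Cyp26b1 (ENSRNOG00000015076), a cytochrome P450 gene whose enzyme breaks down retinoic acid, was close to the detection limit. It had 37, 35, 17 and 15 counts in CNT-7 rats 3, 5, 10 and 11, and 6, 20, 9 and 17 counts in CNT-T rats 1, 2, 12 and 13, which correspond to 0.20 to 1.21 CPM. CNT-7 rats 3 and 5 were above all CNT-T rats in counts and in CPM. In CPM, CNT-7 rat 10 (0.614) was also just above the highest CNT-T rat, rat 13 (0.608). CNT-7 rat 11 (0.543) lay among the CNT-T rats. The log2 fold change was 1.06 with a standard error of 0.44 (edgeR adjusted p = 0.12). Without CNT-7 rat 11 it was 1.24 and significant (edgeR adjusted p = 0.085), so that at this depth the call depended on 1 rat. Its relative Cyp26a1 had 0.60 ± 0.35 CPM in CNT-7 rats against 0.91 ± 0.46 CPM in CNT-T rats (edgeR adjusted p = 0.48).

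Retsat (ENSRNOG00000014090), the gene of retinol saturase, which reduces retinol to dihydroretinol, did not separate the groups. It had 92.0, 109.7, 79.6 and 103 CPM in CNT-7 rats 3, 5, 10 and 11 and 93.8, 112, 90.5 and 78.3 CPM in CNT-T rats 1, 2, 12 and 13. The ranges of both groups coincided almost entirely. The log2 fold change was 0.039 (95% interval -0.25 to 0.32, edgeR adjusted p = 0.86).

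Beyond the 10 genes, 86 further genes of retinoid uptake, metabolism, receptors and targets and of the GATA group were listed, of which 80 were in the table and 47 were tested. Of these, 9 were significantly higher and 8 significantly lower in CNT-7 and 30 did not pass, with a median log2 fold change of 0.022 against 0.0083 over all genes. The significant share of 36.2% stands beside 27.9% of all genes tested, and nothing particular to the lists is read from it. Another 11 had 0 counts in every rat, among them Aldh1a1, the retinol carrier gene Rbp4 and Rxrg. Single genes are given by step.

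Among 15 genes of retinol uptake, binding and storage, 5 were tested, 1 rose significantly and 1 fell significantly. Crabp2, whose protein carries retinoic acid to RAR in the nucleus, had 2.89, 1.51, 3.57 and 3.58 CPM in CNT-7 rats 3, 5, 10 and 11 and 0.13, 0.92, 0.33 and 0.75 CPM in CNT-T rats 1, 2, 12 and 13. The groups did not overlap, and the log2 fold change was 2.43 (standard error 0.51, edgeR adjusted p = 0.0088). Fabp5, whose protein can carry retinoic acid to another nuclear receptor, PPAR delta, was lower in CNT-7 rats, at 108 ± 19.7 CPM against 150 ± 27.9 CPM, and the ranges of the groups overlapped (log2 fold change -0.47, edgeR adjusted p = 0.072). The call for Fabp5 was lost without CNT-7 rat 5 or 10 or CNT-T rat 2 or 13, with edgeR adjusted p-values between 0.12 and 0.16.

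Of 23 genes for oxidation and reduction of retinol and retinal, 10 were tested, 4 rose significantly and 1 fell significantly. Aldh1a2, the enzyme gene for the last step to retinoic acid, had 20, 38, 25 and 13 counts in CNT-7 rats 3, 5, 10 and 11 and 3, 4, 1 and 3 counts in CNT-T rats 1, 2, 12 and 13. It lies below the mean of 1 CPM set for naming genes and was chosen after its values were seen. The groups did not overlap, and the summed counts of 96 and 11 correspond to a 9.25-fold higher level after CNT-7 (exact 95% interval 4.94 to 19.1, for counting error only), with an adjusted p = 0.0020 from edgeR. The level after CNT-7 was still only 0.47 to 1.27 CPM. Dendritic cells also express Aldh1a2. Of the dendritic cell markers 5 of 8 were tested and 3 were significantly higher, namely Batf3, Clec9a and Ccr7. The other tested markers, Zbtb46 and Itgae, had log2 fold changes of -0.22 and -0.032 and did not pass (edgeR adjusted p = 0.65 and 0.93). The 8 markers summed to 15.9 to 22.3 CPM in CNT-7 rats against 10.1 to 18.3 CPM in CNT-T rats, Flt3, Xcr1 and Cd209a were under 1 CPM in every rat, and the part of such cells in the levels of Aldh1a2, Crabp2 and Rarb was not tested.

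Bco1, which cleaves beta-carotene to retinal, had 1.84 ± 0.71 CPM in CNT-7 rats against 0.74 ± 0.39 CPM in CNT-T rats (log2 fold change 1.32, edgeR adjusted p = 0.045), a call that was lost without CNT-7 rat 11 or CNT-T rat 2 or 13 (edgeR adjusted p-values 0.10, 0.11 and 0.11). The dehydrogenase gene Dhrs7 rose from 29.3 ± 1.71 to 36.6 ± 2.91 CPM (edgeR adjusted p = 0.021), and it was significant in all 8 fits that left out a rat. Dhrs9, which can oxidise retinol, rose from 0.58 ± 0.087 to 1.49 ± 1.03 CPM (edgeR adjusted p = 0.053), mostly through CNT-7 rat 10 with 3.03 CPM. Its call was lost without CNT-7 rat 10 or CNT-T rat 1, 2 or 12 (edgeR adjusted p-values 0.10, 0.11, 0.11 and 0.10), and without CNT-7 rat 10 the log2 fold change fell to 0.75 from 1.36. The medium-chain alcohol dehydrogenase gene Adh5 was slightly lower, with 38.8 ± 1.59 CPM in CNT-7 rats against 44.5 ± 3.03 CPM in CNT-T rats (edgeR adjusted p = 0.080), and among the fits that left out a rat it passed only without CNT-T rat 1 (edgeR adjusted p = 0.063). Bco2 and Rdh11, which act on carotenoids and retinal, had log2 fold changes of -0.0060 and 0.15 and did not pass.

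**Figure D4:**
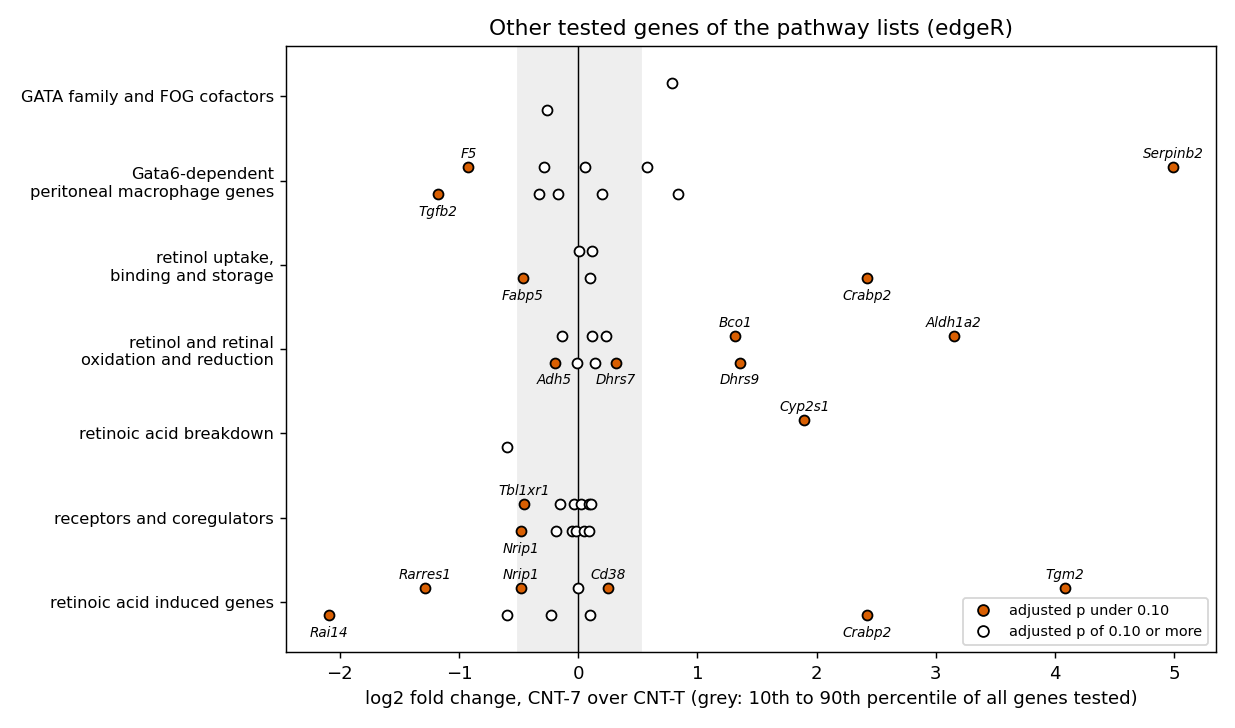
Fold change (log2, CNT-7 over CNT-T) of the other tested genes of the pathway lists (edgeR, 4 rats per particle), with filled, named points for adjusted p-values under 0.10 and a grey band for the 10th to 90th percentile of all genes tested. Crabp2, Nrip1, Cyp26a1 and Lrat belong to 2 lists and appear in each, Cyp26a1 and Lrat as open points without a name. Tgm2 and Rai14 show that genes of the retinoic acid induced list lie on both sides of 0.

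Genes induced by retinoic acid in other cells moved in both directions. Of 18 listed genes 10 were tested, 3 rose significantly and 3 fell significantly, with a median log2 fold change of -0.11. Tgm2, the transglutaminase gene used as a retinoic acid response gene in myeloid cells, had 3214, 5432, 9511 and 3043 CPM in CNT-7 rats 3, 5, 10 and 11 and 149, 530, 273 and 301 CPM in CNT-T rats 1, 2, 12 and 13. The groups were far apart, with a log2 fold change of 4.08 (standard error 0.49, edgeR adjusted p = 0.00072). Cd38, an ectoenzyme gene that retinoic acid induces in leukocytes, rose slightly from 324 ± 12.2 to 386 ± 19.4 CPM (edgeR adjusted p = 0.027).

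Rarres1, a retinoic acid receptor responder gene, was lower in CNT-7 rats, at 63.1 ± 16.9 CPM against 154 ± 26.01 CPM (log2 fold change -1.28, edgeR adjusted p = 0.0025). Rai14, named for its induction by retinoic acid, had 6.21 to 13.9 CPM in CNT-7 rats against 29.1 to 46.0 CPM in CNT-T rats (log2 fold change -2.09, edgeR adjusted p = 0.00073). Neither gene overlapped between the groups, so that Rarres1 and Rai14 lay opposite to Rarb and Tgm2. Several genes of this list also respond to other signals, and none was measured here with added or withheld retinoic acid.

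The proteins that RAR and RXR recruit were counted together with the remaining receptors. Of 12 tested genes of this list, 2 were lower in CNT-7, 0 were higher and 10 were not significant, with a median log2 fold change of -0.026. Nrip1, the gene of the corepressor RIP140, had 92.1 ± 13.3 CPM in CNT-7 rats against 129 ± 13.5 CPM in CNT-T rats (log2 fold change -0.48, edgeR adjusted p = 0.016). Tbl1xr1, a component of the NCoR corepressor complex, had 119 ± 5.09 and 163 ± 21.8 CPM (log2 fold change -0.46, edgeR adjusted p = 0.0096). Both corepressor-associated genes were lower in all CNT-7 rats than in any CNT-T rat, whereas Ncor1, a corepressor gene, had a log2 fold change of -0.18 and did not pass (edgeR adjusted p = 0.28). On the list of breakdown enzymes, 1 of 2 tested genes rose. This was Cyp2s1, a cytochrome P450 gene reported to act on retinoic acid, with 15.7 to 28.6 CPM in CNT-7 rats against 3.58 to 6.81 CPM in CNT-T rats (log2 fold change 1.90, edgeR adjusted p = 0.00096).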

How the data were processed

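RNA-seq of sorted macrophages was used, with 4 rats per particle grouped by the sample labels. The authors quantified reads with Salmon against Ensembl rat cDNA sequences (Rnor_6.0, per the submitters' processing notes) and imported them with tximeta. What the authors deposited were estimated counts, not normalized and in whole numbers.

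Counts were tested with edgeR 4.0.16 in R 4.3.3 (TMM, filterByExpr with min.count 10 and min.total.count 15, quasi-likelihood test, adjusted p-value under 0.10). The F statistic gave the standard errors. CPM used TMM-normalized library sizes. Ratios within a rat used a prior count of 2 and exact permutation over 70 divisions. Estimated counts divide reads between similar transcripts, and intervals of counts cover counting error only. Upstream regions came from RefSeq tables of GRCr8.

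The 10 genes, by symbol, and the lists were chosen with earlier results of these data known. Named genes were the 10 genes, significant listed genes with a mean of at least 1 CPM, and the 5 genes most like Gata6; others are stated. Alternatives were DESeq2 1.42.0, upper-quartile normalization, other filters, a threshold of 0.05, the range of rat numbers as a term, a prior count of 0.5, and each rat left out. Scripts were tested on simulated counts.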

Additional observations from a re-analysis of the deposited data

Results flagged for a closer look

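In 60 groups of 4 rats examined, a single rat stood far from the other 3 of its group in 1 case, whereas chance alone gives about 1 in 20, that is 3. Dhrs9 had 3.03 CPM in CNT-7 rat 10, whereas CNT-7 rats 3, 5 and 11 had 0.90 to 1.08 CPM (the gap was 0.916 of the range of the group, above the critical value of Dixon for 4 samples). Of the 10 genes, none had such a rat in either group.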

How the results depend on the processing

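The call and direction of Rarb and Rara were the same under every alternative that was run. The number of significant genes among the 10 was 4 with DESeq2, upper-quartile normalization, both other filters and the range of rat numbers as a term, and 3 at an adjusted p-value under 0.05, where Dhrs3 was lost. With each rat left out in turn, between 2 and 5 of the 10 genes were significant, the lowest number without CNT-T rat 2. The log2 fold change of Rarg then ran from -0.07 to 0.11 and that of Retsat from -0.04 to 0.13, so that their sign was not fixed. Without CNT-7 rat 5, CNT-7 rat 11 or CNT-T rat 13, Rarg had -0.048, -0.0016 and -0.073, and without CNT-7 rat 5 or CNT-T rat 13 Retsat had -0.031 and -0.039. Over all genes, between 2507 and 3633 passed under the alternatives, against 3383. Adh5 lost significance without a filter (adjusted p = 0.11, edgeR). No scaling moved the median of all genes by more than 0.1. Cyp26b1 has no value with at least 10 counts in every rat. Differences of the ratios without single rats ran from 0.59 to 0.72 for Rara to Rarg and from -0.063 to 0.036 for Rxra to Rxrb. With any rat left out, Rdh10 to Dhrs3 and Rara to Rarg had a two-sided exact permutation p of 0.0286, the smallest that 35 divisions give. These fits used a test on the absolute difference of means, which was chosen after seeing the data. The main test doubles the smaller tail, and with 35 divisions it cannot give a p under 0.05. That p stayed at 0.0286 therefore rests on this change of test, and only the differences are compared between fits. Rxra to Rxrb changed sign without CNT-7 rat 3 (0.0043), CNT-7 rat 10 (0.00039) or CNT-T rat 1 (0.036), with exact permutation p-values of 0.43 to 1.0 over the 8 fits. No paired analysis was possible because no rat number is shared by both groups. Low counts limit several tested genes, with 6 to 37 per rat for Cyp26b1, 4 to 21 for Gata3 and 7 to 40 for Cyp26a1.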
